A study of Xenopus laevis with 18 samples.

Results

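Genes that write, read, erase or move chromatin marks were followed through gastrulation in whole Xenopus laevis embryos, in which SUMO conjugation had been lowered or left alone. Members were taken by name only, from the gene symbol of the Affymetrix array's probe sets: the hdac and sin3 deacetylase genes, the kdm, kmt, setd and numbered kat genes, the smarc and arid remodeling subunits, the numbered chd and brd genes, the dnmt and mbd genes of DNA methylation, and the Polycomb and chromobox genes (cbx, pcgf, ezh2, eed, suz12, bmi1 and ring1). This gave 111 probe sets of the 23629 that were not array controls, and they carried 78 of the 9149 symbols on the array, from 63 genes, since X. laevis keeps many genes as a pair of homeologs marked .L and .S. The families held 28 probe sets for SWI/SNF and ISWI subunits, 23 for Polycomb and chromobox proteins, 13 for histone methyltransferases, 12 for deacetylases and Sin3, 11 for DNA methylation writers and readers, 9 for histone demethylases, 7 for CHD remodelers, 6 for bromodomain proteins and 2 for an acetyltransferase. A further 4 probe sets that carried symbols of several genes were left out of the members.

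Embryos had been injected at 1 cell either with water (control embryos) or with 0.5 ng of mRNA encoding Gam1, an avian adenovirus protein that has the SUMO-activating enzyme degraded (Gam1 embryos). They were collected at early gastrula (9 h after fertilization), late gastrula (13.5 h) and early neurula (16.5 h), with 3 biological replicates at each stage and treatment, 18 arrays in 6 groups, and 20 pooled embryos in each RNA sample. No strain or genotype was named, the injections went into the animal hemisphere, and the replicates were meant to cover differences between egg clutches. Because whole embryos were measured, fewer cells of a kind and less RNA per cell cannot be told apart in any value given here. A microarray reports a relative hybridization signal, so levels are given on the deposited log2 scale and are compared between groups for the same probe set, never between probe sets.

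Chromatin regulators act on the nucleosome, either by adding and removing chemical groups on histone tails and DNA, by binding those groups, or by using ATP to slide or evict nucleosomes. In the early frog embryo the egg supplies many of them as maternal mRNA, which is cleared and replaced by zygotic transcripts after the midblastula transition. Many are also substrates of SUMO, and SUMO conjugation on chromatin is widely linked to repression through deacetylase, Polycomb and DNA methylation complexes.

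Most members gave clear signal. The mean over 18 arrays ran from 2.07 to 13.62, with a median of 9.25 against 7.60 for all probe sets. A group mean of at least 5 was reached by 101 members, and 35 had every group mean at 10 or more. Every group mean lay under 4 for 5 members (4.50% against 10.5% of all probe sets), namely cbx8.L, arid2.S and single probe sets of chd7.L, mbd2.S and cbx5.S. The lowest value on every array was 2.07, so values near it have no order and a fall that ends there is cut short. Far above that value lay, for example, kmt5a.S, the methyltransferase of histone H4 lysine 20, at 14.17, 14.13 and 14.22 in control early gastrulae, and ezh2.L, the catalytic subunit of Polycomb repressive complex PRC2, at 13.34, 13.45 and 13.41.

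Replicate numbers differed more than treatments at the start of gastrulation. The range between the 3 replicate numbers (mean of the Gam1 and control array of each number) had a median over members of 0.51 (log2) in early gastrulae, falling to 0.35 and 0.32 at the later stages. At early gastrula this range was above the largest difference between Gam1 and control arrays of any replicate number for 99 of the 111 members. The widest was that of smarcd3.S, a SWI/SNF subunit, whose probe set Xl2.50423.1.S1_at averaged 8.28, 6.80 and 8.54 in replicates 1, 2 and 3. Markers of germ layers moved with the replicate number as well: the mean level of the endoderm list at early gastrula was 6.26 (Gam1) and 6.33 (control) in replicate 2 but 8.23 to 9.94 in the other arrays, and that of the mesoderm list was 4.87 to 6.10 at early gastrula and 10.37 to 10.76 later. All marker probe sets (13 neural plate, 13 endoderm, 10 mesoderm and 7 epidermis) reached a group mean of 5, and none was called between treatments in the unpaired fit. With the replicate block and the shared spread, the neural plate list had 1, 1 and 3 probe sets called lower in the order of the stages. The epidermis list had 2 lower in late gastrulae and 1 in early neurulae, and the endoderm list 1 lower and 1 higher in early neurulae. Of all 23629 probe sets, that fit called 31, 520 and 818 lower and 7, 389 and 1071 higher in the order of the stages. The mean of the neural plate list was lower in the Gam1 array of every replicate number at all 3 stages, as was that of the mesoderm list, and that of the epidermis list was lower in every replicate number at both later stages and higher in each at the first. For the neural plate list, Gam1 arrays were at 9.89 to 10.10 and control arrays at 10.21 to 10.41 in early gastrulae, 10.87 to 11.30 and 11.39 to 11.52 in late gastrulae, and 10.72 to 11.33 and 11.42 to 11.48 in early neurulae. For the mesoderm list the late gastrula values were 10.37 to 10.63 against 10.47 to 10.72, and for the epidermis list the early neurula values were 10.01 to 10.17 against 10.20 to 10.49. The part of these differences in the results below was not tested.

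In control embryos the members split nearly evenly between falling and rising from early to late gastrula, and the largest falls were in genes of PRC1 and in hdac2, setd1b, mbd2 and dnmt1, the largest rises in kat7, cbx1, brd2 and kmt5b. Of the 111 members, 31 fell and 28 rose at a Benjamini-Hochberg adjusted p under 0.05 over all probe sets in limma, 53.2% in all against a background of 53.6% (29.7% lower and 24.0% higher). Their share was therefore close to that of the whole array, and the median change was 0.03 against -0.08 for all probe sets. A change of more than 1 on the log2 scale was seen in 38 members, 34.2% against 43.7% of all probe sets. Nothing in these counts sets chromatin regulators apart as a class, and the description that follows is of single genes and complexes.

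**Figure D1:**
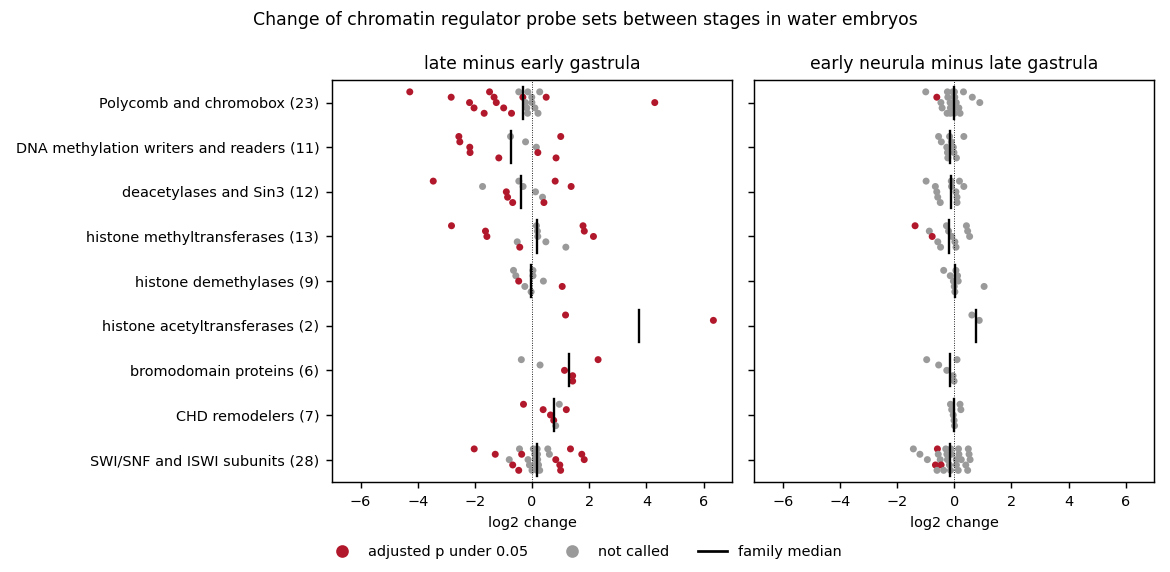
Log2 change of each of the 111 member probe sets between neighbouring stages in control embryos (early to late gastrula, then late gastrula to early neurula), by family; red points passed a limma adjusted p under 0.05 and bars are family medians. Changes reach from -4.28 to 6.34 at the earlier step, with 59 red points, and only 6 points are red at the later one.

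Polycomb repressive complex PRC1, which ubiquitinates histone H2A and compacts chromatin, had falling signal in most of its measured probe sets. Grouped by textbook role after the values had been seen, 10 of 11 probe sets of PRC1 subunits fell (90.9%, against 29.7% of all probe sets). All 11 had negative changes, with a median of -1.49 and a range of -4.28 to -0.32. The chromobox subunit cbx8.S (Xl2.49997.1.S1_at) read 7.21, 8.06 and 7.04 in control early gastrulae and 2.72, 3.12 and 3.63 at late gastrula. The groups lay far apart, a 19.4-fold fall (log2 change -4.28, SE 0.32, adjusted p = 3.37e-05, n = 3 per stage), and the later values were near the array's lowest. The RING-finger partner pcgf2.L (mel18) fell from 8.59, 8.92 and 7.95 to 5.38, 5.89 and 5.69, a change of -2.83 (SE 0.29, adjusted p = 0.000134). Its paralog bmi1.S fell from 7.21, 7.65 and 6.96 to 4.72, 5.67 and 4.87, a change of -2.19 (SE 0.36, adjusted p = 0.00143), again without overlap. The E3 ligase gene ring1.S changed by -1.68 (SE 0.13, adjusted p = 3.88e-05), and the chromobox genes cbx6.L and cbx2.L by -2.03 and -1.33. Smaller falls were seen for bmi1.L (-1.25), pcgf2.S (-1.49) and pcgf1.L (-0.99). At early gastrula the means of the Gam1 and control array of each replicate number were 3.87 to 4.66 for cbx6.L and 3.54 to 4.51 for pcgf2.S. The falls of these 2 therefore also ended near the array's lowest value and are cut short. The median of -1.49 is the change of pcgf2.S. The call of cbx8.L (-0.32, adjusted p = 0.0176) rests on values near the array's lowest, which have no order, and ring1.L (-0.47) did not pass the test.

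PRC2, which trimethylates histone H3 lysine 27, had 1 of 6 probe sets called under the same grouping, against 53.6% of all probe sets. Its difference from PRC1 was not tested. Its catalytic subunit ezh2.L stood at 13.34, 13.45 and 13.41 in control early gastrulae, 13.16, 13.26 and 13.33 in late gastrulae and 12.98, 13.14 and 13.20 in early neurulae. The early and late gastrula arrays did not overlap and those of the later stages did, and no change was called at either step. Of the PRC2 scaffold genes, eed.S fell by 0.72 (SE 0.14, adjusted p = 0.00325), eed.L changed by -0.01, and the 3 suz12 probe sets changed by -0.18 to 0.27 without passing the test. The HP1 proteins, chromobox readers of histone H3 lysine 9 methylation, included the only risers of the family. HP1-beta, cbx1.S, went from 6.05, 5.16 and 6.24 to 10.45, 9.95 and 9.93, a 19.6-fold rise (log2 change 4.29, SE 0.29, adjusted p = 2.26e-05). One of 3 cbx5.S (HP1-alpha) probe sets rose, by 0.49, whereas cbx3.L and cbx3.S (HP1-gamma) were not called.

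**Figure D2:**
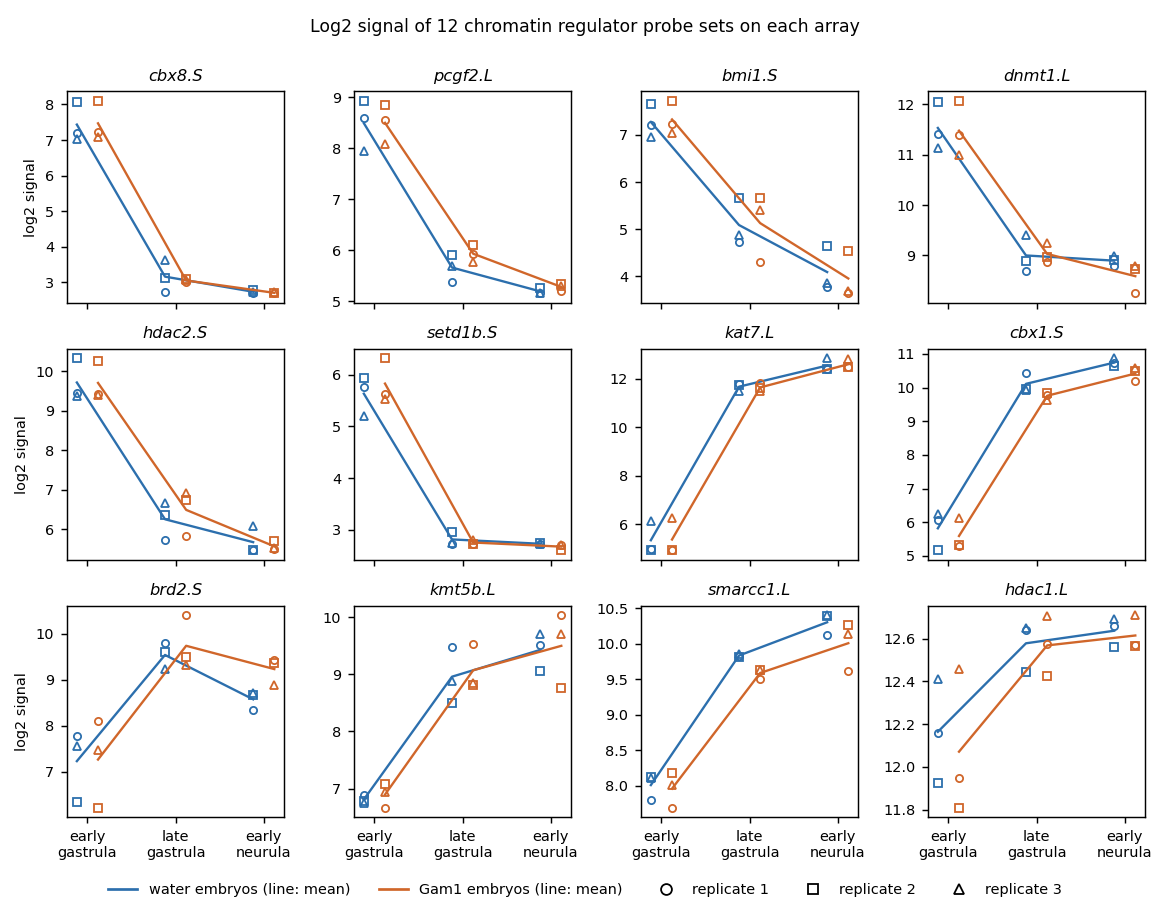
Log2 signal of 12 member probe sets on each of the 18 arrays, by stage; blue is control, orange is Gam1, marker shapes are replicates 1 to 3 and lines join group means. In cbx8.S, hdac2.S and dnmt1.L the early gastrula arrays lie above all later ones, in kat7.L and cbx1.S below them, and Gam1 and control points of 1 replicate number lie close together in most panels.

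Among the genes of DNA methylation, the maintenance methyltransferase fell in all 3 of its probe sets. The signal of dnmt1.L was 11.41, 12.05 and 11.12 in early gastrulae and later 8.70, 8.90 and 9.40, a 5.76-fold fall (log2 change -2.53, SE 0.26, adjusted p = 0.000149). Both dnmt1.S probe sets fell, with changes of -2.17 for Xl2.23370.2.S2_at and -2.18 for Xl2.8088.1.S1_at (adjusted p = 4.8e-05 and 0.000294). For the latter, the means of the Gam1 and control array of each replicate number were 4.75, 5.35 and 4.29 at early gastrula. Its fall thus ended near the array's lowest value and is cut short, so the sizes of the 2 falls cannot be compared. The methyl-CpG readers went opposite ways. The mbd2.S probe set Xl2.21615.1.S1_a_at fell by 2.56 (SE 0.24, adjusted p = 9.04e-05), to values near the array's lowest. In contrast mbd3.S, the alternative MBD subunit of the NuRD complex, rose by 0.84 and 0.20 in 2 of 3 probe sets, and mbd1.L rose by 1.0. No probe set with the symbol dnmt3a or dnmt3b alone was among the members.

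The deacetylases also split by paralog. The signal of hdac2.S was 9.44, 10.32 and 9.37 in control early gastrulae and 5.73, 6.37 and 6.66 at late gastrula, a fall of 11-fold (log2 change -3.46, SE 0.36, adjusted p = 0.000154). Its paralog hdac1.L, which shares the same complexes, moved from 12.16, 11.92 and 12.41 to 12.64, 12.44 and 12.65, a change of 0.41 (SE 0.13, adjusted p = 0.0268). The 2 hdac1.S probe sets changed by 0.81 and 0.37, of which the former was called. The direct contrast of the paralogs was not tested, and their levels cannot be compared because they come from different probes. The Sin3 scaffolds sin3a.S and sin3b.S fell by 0.90 (adjusted p = 0.0167) and 0.68, the cytoplasmic deacetylase hdac6.L fell by 0.86, and the class IIa gene hdac9.S rose by 1.37.

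The largest change of any member was the rise of kat7.L, the acetyltransferase HBO1 that acts on histones H3 and H4. Its probe set Xl2.5994.1.S1_at read 4.97, 4.91 and 6.13 in early gastrulae, 11.79, 11.74 and 11.50 in late gastrulae and 12.39, 12.41 and 12.85 in early neurulae. The earlier step was an 81.1-fold rise (log2 change 6.34, SE 0.32, adjusted p = 6.9e-06). The other kat7.L probe set, Xl2.24088.1.S1_a_at, rose by only 1.17 (SE 0.24, adjusted p = 0.00388), so the size of the rise depends on the probes. Bromodomain genes, whose products bind acetylated histones, rose in 4 of 6 probe sets and fell in none, against 24.0% and 29.7% of all probe sets. The BET protein gene brd2.S (Xl2.26181.1.A1_at) went from 7.77, 6.34 and 7.57 to 9.79, 9.59 and 9.22, a change of 2.31 (SE 0.37, adjusted p = 0.00122), and its other probe set rose by 1.42. The subunits brd9.L and brd7.L of SWI/SNF subcomplexes rose by 1.42 and 1.13.

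Histone methyltransferases were called lower in 4 of 13 probe sets and higher in 3, near the 29.7% and 24.0% of all probe sets. The H3 lysine 4 methyltransferase gene setd1b.S dropped from 5.76, 5.94 and 5.21 to 2.74, 2.97 and 2.74, close to the array's lowest value, a change of -2.82 (SE 0.19, adjusted p = 2.02e-05). Both setd4.L probe sets fell as well, by 1.63 and 1.58. The 2 homeologs of kmt5b, which di- and trimethylates H4 lysine 20, rose: kmt5b.L went from 6.89, 6.79 and 6.76 to 9.48, 8.51 and 8.89, a change of 2.15 (SE 0.27, adjusted p = 0.000387), and kmt5b.S changed by 1.83 (SE 0.32, adjusted p = 0.00192). The monomethyltransferase gene kmt5a.S was called in both directions, with -0.43 for Xl2.54481.1.S1_at and 1.78 (SE 0.38, adjusted p = 0.00485) for Xl2.46189.1.A1_at. Of 9 demethylase probe sets, kdm3a.L (-0.47) and 1 of 2 for kdm2b.L (1.05) passed the test. That is 1 lower and 1 higher, against 29.7% and 24.0% of all probe sets.

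Among remodelers, 6 of 12 probe sets of accessory SWI/SNF (BAF) subunits rose and 1 fell (median 0.51), and of 7 probe sets of ATPases with a smarc symbol 3 fell and none rose (median -0.36). These groups were made after the values had been seen, several probe sets belong to 1 gene, and the difference between the groups was not tested. Of all probe sets, 29.7% fell and 24.0% rose at this step. The core subunit smarcc1.L (BAF155) went from 7.80, 8.12 and 8.11 to 9.83, 9.81 and 9.86, a change of 1.82 (SE 0.13, adjusted p = 2.73e-05), and its other probe set rose by 0.97. All 3 smarce1.L (BAF57) probe sets rose, by 0.83 to 1.34, and smarcd2.L (BAF60B) rose by 1.74 (SE 0.33, adjusted p = 0.00281). The ATPase of ISWI complexes, smarca5.S, fell from 13.69, 13.55 and 13.46 to 12.11, 12.50 and 12.22, a change of -1.29 (SE 0.14, adjusted p = 0.000172), and the annealing helicase smarcal1.L fell by 2.02. The SWI/SNF ATPase smarca4.S (BRG1) was not called. Of the CHD ATPases, the NuRD remodeler chd4.L rose by 1.20 (SE 0.13, adjusted p = 0.000209), and the chd1 pair was not called. For chd7.L, 3 of 4 probe sets rose by 0.39 to 0.76. The other, with every group mean under 4, fell by 0.30.

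From late gastrula to early neurula few members passed the test. In limma 6 members were called, all lower (5.41%, against a background of 7.78% called, 3.69% lower), and the median change was -0.08 against -0.03 for all probe sets. The ATPase smarca5.S fell further, to 11.51, 11.90 and 11.65 (log2 change -0.59, SE 0.14, adjusted p = 0.0456). The SWI/SNF ATPase smarca2.L (BRM) fell by 0.66 and 0.46 in 2 of 3 probe sets (adjusted p = 0.0266 and 0.048). Both kmt5a homeologs fell: kmt5a.S (Xl2.54481.1.S1_at) went from 13.46, 13.78 and 13.97 to 12.80, 13.21 and 12.88 (log2 change -0.77, SE 0.15, adjusted p = 0.031), and kmt5a.L went from 9.43, 9.82 and 9.52 to 8.26, 8.75 and 7.64 (log2 change -1.37, SE 0.31, adjusted p = 0.0416). The PRC1 subunit cbx2.L fell by 0.61 (SE 0.14, adjusted p = 0.0461). Among these genes, cbx2.L, kmt5a.S, smarca2.L and smarca5.S, each had a probe set that fell at both steps (3.60% of members against 2.7% of all probe sets), and no member rose at both.

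This later count changed with the replicate block and with single arrays. With the replicate number as a block, 19 members were called, 13 lower and 6 higher, against 16.5% of all probe sets, and those added included sin3a.S (-0.99, adjusted p = 0.0426), bmi1.S (-0.998, adjusted p = 0.0303), kdm7a.S (1.04, adjusted p = 0.0357) and smarcc1.L (0.47, adjusted p = 0.0368). Without the late gastrula control replicate 2 or 3, or without the early neurula control replicate 1 or 3, none was called. Without the early gastrula control replicate 1 or 3 the count was 1 and 3, and without the late gastrula control replicate 1 it was 11. Of all 23629 probe sets, 871 lower and 967 higher were called with every array. These were 22 and 134, and 19 and 144, without the late gastrula control replicate 2 or 3. They were 53 and 262, and 37 and 223, without the early neurula control replicate 1 or 3. Leaving out the early gastrula control replicate 1 or 3 gave 217 and 501, and 283 and 558. Leaving out the late gastrula control replicate 1 gave 1814 and 1516.

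Gam1 embryos followed the same course. From early to late gastrula 58 members were called in them, 29 in each direction, against 51.1% of all probe sets, with a median change of -0.01 against -0.07. Between the treatments 54 members were called in the same direction, 27 lower and 27 higher, which is 48.6% against 47.0% of all probe sets, and none in opposite directions (5 on the whole array). The changes of the most altered genes were close: 6.28 in Gam1 against 6.34 in control embryos for kat7.L, -4.42 against -4.28 for cbx8.S, 4.17 against 4.29 for cbx1.S, and -3.21 against -3.46 for hdac2.S. Called in Gam1 embryos alone were smarcb1.S, an hdac1.S probe set, kdm6a.S (-1.10 against -0.65) and kdm7a.S (-1.42 against -0.57). Called in control embryos alone were chd7.L (0.39 against 0.15 in Gam1), cbx8.L, smarca2.L, sin3b.S and kdm3a.L, 1 probe set each. The difference between treatments was itself tested for kdm7a.S and was not called (log2 difference -0.86, SE 0.41, unadjusted p = 0.0559, adjusted p = 1). From late gastrula to early neurula 3 members fell in Gam1 embryos, smarcal1.L (-1.59, adjusted p = 0.016), kmt5a.S (-0.90, adjusted p = 0.0142) and sin3b.L (-0.85, adjusted p = 0.0312), against 12.0% of all probe sets called. That count was 18 with the replicate block (22.8% of all probe sets). It was 0 without the late gastrula Gam1 replicate 2 or 3 or the early neurula Gam1 replicate 3. It was 9 without the late gastrula Gam1 replicate 1. Leaving out the early gastrula Gam1 replicate 3 gave 5, and leaving out replicate 1 of that stage gave 2. Of all 23629 probe sets, 1584 lower and 1248 higher were called with every array. These were 258 and 263, and 198 and 231, without the late gastrula Gam1 replicate 2 or 3. They were 450 and 430 without the early neurula Gam1 replicate 3, and 1695 and 1311 without the late gastrula Gam1 replicate 1. Leaving out the early gastrula Gam1 replicate 3 or 1 gave 1279 and 1078, and 1091 and 942.

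The comparison of Gam1 with control embryos within a stage asked which chromatin genes changed when SUMO conjugation was lowered. No member was called by limma at any of the 3 stages, and neither was any other probe set (0.0% of 23629). At an unadjusted p under 0.05 the members numbered 0 in early gastrulae (background 0.626%), 4 in late gastrulae (background 4.39%) and 5 in early neurulae (background 6.66%). Those 4 were 3 lower and 1 higher, against backgrounds of 2.42% and 1.97%, and those 5 were 4 lower and 1 higher, against 3.22% and 3.44%. With the replicate number as a block and a spread shared by the stages, 0, 0 and 2 members were called in the order of the stages, with backgrounds of 0.161%, 3.85% and 7.99%. The 2 members at early neurula were 1.8% of the list. At an unadjusted p under 0.05 the block gave 8.11%, 9.91% and 11.7% of members against 9.06%, 14.3% and 17.9% of all probe sets, and with the shared spread 5.41%, 20.7% and 24.3% against 6.04%, 24.0% and 27.0%, so the members lay below the background each time. Differences were small, and none reached 1 on the log2 scale at any stage, against 0.182%, 2.52% and 3.4% of all probe sets, and a difference over 0.5 was found in 2, 3 and 5 members, which is 1.8%, 2.7% and 4.5% against 2.27%, 10.0% and 12.6%. Where the mean signal was 6 or higher, the shares over 0.5 were 2.22%, 2.33% and 5.75% for members against 1.29%, 7.99% and 11.2%.

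**Figure D3:**
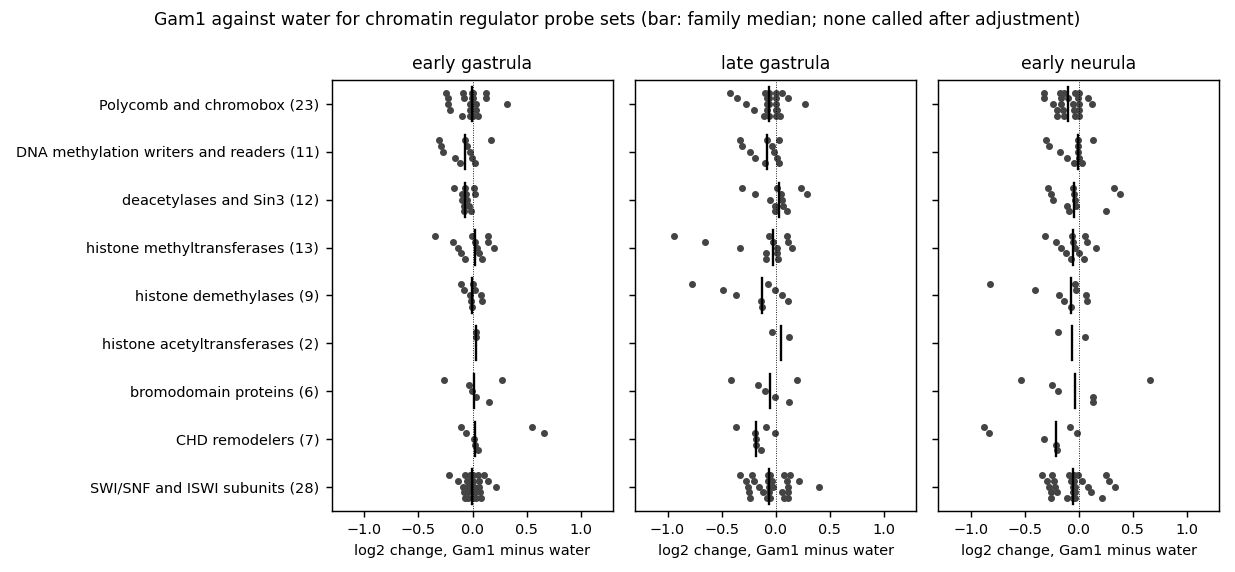
Gam1 minus control difference in log2 signal of each of the 111 member probe sets by family and stage; bars are family medians and no point passed a limma adjusted p under 0.05. In the order of the stages the differences run from -0.35 to 0.66, from -0.94 to 0.40 and from -0.87 to 0.66, and all 7 points of the CHD family lie below 0 at the later stages.

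The sign of these small differences leaned downward at the later stages. Members with a negative difference numbered 63, 71 and 83 of 111, which is 56.8%, 64.0% and 74.8% against 49.4%, 49.2% and 51.4% of all probe sets. At early neurula 80, 67 and 63 members were lower in Gam1 within replicates 1, 2 and 3, and the members' median differences in these replicates were -0.10, -0.03 and -0.01. The members' medians were -0.01, -0.06 and -0.05 over the stages against 0.00 for all probe sets. All 3 replicate numbers were lower in Gam1 for 36 members at early neurula (32.4% against 24.4%) and higher for 11 (9.91% against 22.6%). The median shift was thus at most 0.10 within any replicate at early neurula, and it was widest in replicate 1.

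No probe set of the core subunits of Polycomb, DNA methylation, deacetylase, SWI/SNF and ISWI complexes was called between treatments. Over ezh2, eed, suz12, dnmt1, hdac1, hdac2, sin3a, smarca4 and smarca5, 16 probe sets of 9 genes ranged from -0.25 (eed.L) to 0.17 (dnmt1.S) in early gastrulae, from -0.42 (a suz12 probe set) to 0.24 (hdac2.S) in late gastrulae, and from -0.31 (dnmt1.L) to -0.01 (smarca4.S) in early neurulae. The smallest unadjusted limma p among them at any stage was 0.0968. At early neurula all 16 were negative, against 74.8% of members and 51.4% of all probe sets. These 16 come from 9 genes and are not independent. The SWI/SNF ATPase smarca2.L was not on this list, and its 3 probe sets differed by 0.21 to 0.34 at early neurula, none of them called. The ezh2.L difference was 0.00, 0.01 and -0.03 at the 3 stages, and that of hdac1.L was -0.09, -0.01 and -0.02.

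The chd1 homeologs gave the highest member difference at early gastrula and the lowest at early neurula, though not the smallest p. The CHD genes encode ATP-dependent remodelers, of which chd1 acts at promoters of active genes. At early gastrula chd1.L read 9.11, 7.76 and 8.69 in Gam1 and 8.65, 7.15 and 8.13 in control embryos, higher in Gam1 in each replicate number although the groups overlapped. At early neurula the same probe set read 8.76, 7.17 and 8.12 in Gam1 against 8.92, 8.51 and 9.24, lower in each. These differences were 0.55 (SE 0.53) and -0.87 (SE 0.45, unadjusted p = 0.107), neither of them called, and the former ranged from 0.13 (without control replicate 2) to 0.93 when single arrays were left out. The homeolog chd1.S behaved alike, with 0.66 (SE 0.51, unadjusted p = 0.249; 0.28 without Gam1 replicate 1) at early gastrula and -0.83 (SE 0.30, unadjusted p = 0.0386) at early neurula, where it read 8.18, 7.65 and 7.21 against 8.18, 8.74 and 8.59. All 7 CHD probe sets, chd1, chd4 and chd7, had negative differences at both later stages, with medians of -0.18 and -0.21. Of these 7, 4 belong to chd7.L and are not independent, and 1 of those had every group mean under 4.

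The demethylase gene kdm7a.S, which removes methyl groups from H3 lysine 9 and 27, was lower in Gam1 at both later stages. It read 8.18, 7.86 and 7.52 in Gam1 and 7.95, 7.61 and 7.75 in control embryos at early gastrula. In late gastrulae the values were 6.44, 6.56 and 6.28 against 7.74, 6.99 and 6.88, and in early neurulae 7.06, 7.20 and 7.99 against 8.40, 7.86 and 8.48. The groups did not overlap at late gastrula, and at early neurula 1 Gam1 array lay above the lowest control array. The differences were -0.77 (SE 0.30, unadjusted p = 0.048) and -0.83 (SE 0.33, unadjusted p = 0.0497), and neither was called after adjustment.

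The methyl-CpG reader mbd1.L was slightly lower in Gam1 at both later stages. It read 10.95, 10.92 and 10.86 against 11.38, 11.14 and 11.14 at late gastrula, without overlap (log2 difference -0.31, SE 0.09, unadjusted p = 0.0155), and 11.07, 11.34 and 11.41 against 11.61, 11.53 and 11.52 at early neurula (-0.28, SE 0.10, unadjusted p = 0.0385). Its adjusted p under the replicate block with the shared spread at late gastrula, 0.0726, was the smallest of any member there. The homeolog did not share this direction throughout. The 2 mbd1.S probe sets differed by -0.19 to 0.03 at late gastrula and by 0.03 to 0.13 at early neurula, and neither was called. The SWI/SNF core subunit smarcc1.L was lower at late gastrula, at 9.51, 9.63 and 9.62 against 9.83, 9.81 and 9.86 (-0.25, SE 0.08, unadjusted p = 0.0205), and the ATPase smarca2.L (Xl2.34943.1.S1_s_at) was higher, at 11.65, 11.58 and 11.60 against 11.32, 11.41 and 11.46 (0.22, SE 0.06, unadjusted p = 0.0148). Neither pair of groups overlapped. The other smarcc1.L probe set differed by -0.06 at this stage, and the 3 smarca2.L probe sets by 0.11 to 0.22. Also lower in all 3 replicate numbers, without passing the unadjusted threshold, were kmt5a.S (Xl2.46189.1.A1_at, -0.65, unadjusted p = 0.0616) and brd1.L (-0.41, unadjusted p = 0.0512), a scaffold of histone acetyltransferase complexes. The 3 kmt5a.S probe sets ranged from -0.65 to 0.02. The most negative difference at late gastrula, -0.94 for setd5.L, came with an SE of 0.65.

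At early neurula the member with the smallest unadjusted p was brd2.S. Its probe set Xl2.26181.1.A1_at read 9.43, 9.37 and 8.89 in Gam1 and 8.34, 8.66 and 8.71 in control embryos, higher in each replicate number and without overlap (log2 difference 0.66, SE 0.20, unadjusted p = 0.0179, adjusted p = 0.605). The other brd2.S probe set differed by 0.13. Another bromodomain gene, brd7.L, differed by -0.53, the most negative value of its family. HP1-beta, cbx1.S, was lower by 0.33 (SE 0.13, unadjusted p = 0.0494), and the class IIb deacetylase gene hdac10.L was higher by 0.38 without passing the unadjusted threshold.

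**Figure D4:**
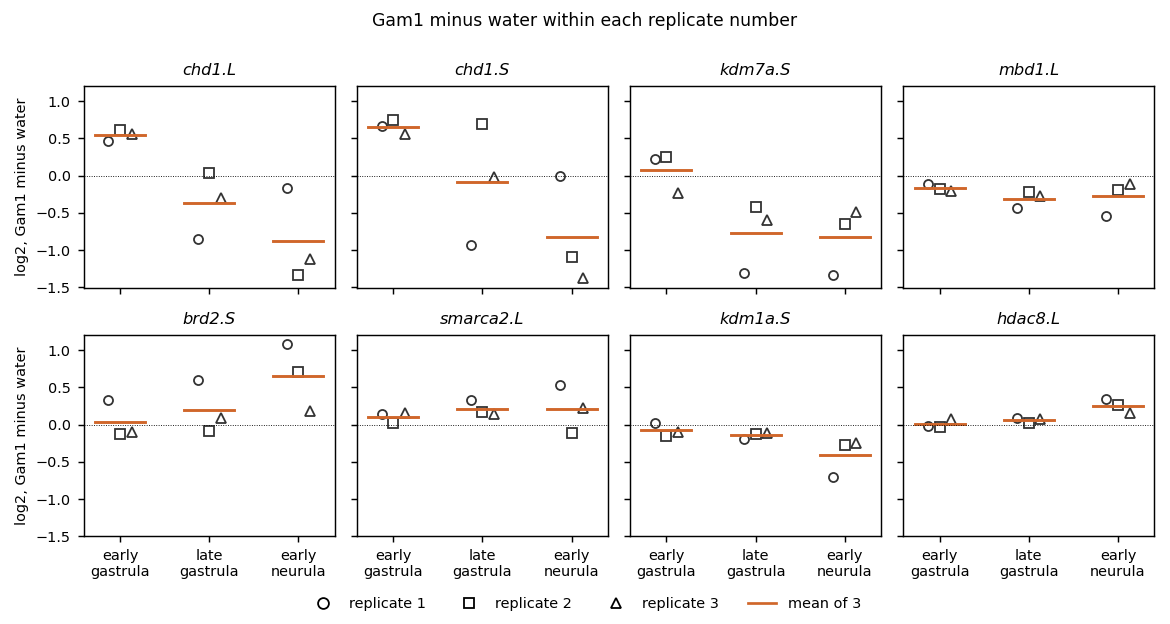
Gam1 minus control difference in log2 signal within each replicate number (1 to 3) for 8 member probe sets at the 3 stages. The chd1.L and chd1.S points lie above 0 at early gastrula and at or below 0 at early neurula, and the kdm7a.S and mbd1.L points lie below 0 at both later stages.

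The 2 members called at early neurula under the replicate block with the shared spread were hdac8.L and kdm1a.S. Without the shared spread, the replicate block called none of the 23629 probe sets at that stage. The class I deacetylase gene hdac8.L read 9.76, 10.54 and 9.61 in Gam1 and 9.42, 10.28 and 9.45 in control embryos, higher within each replicate number although the groups overlapped (log2 difference 0.25, blocked adjusted p = 0.0205). The H3 lysine 4 demethylase gene kdm1a.S (LSD1, Xl2.25613.1.S1_at) read 10.04, 10.81 and 10.75 against 10.75, 11.08 and 11.0, lower within each (-0.41, blocked adjusted p = 0.0297; -0.16 without Gam1 replicate 1). The other kdm1a.S probe set differed by -0.07 and was not called.

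Whether the Gam1 difference changed between stages was tested in a fit of all 18 arrays. No member was called for late against early gastrula (background 0.00423%), early neurula against late gastrula (0.00423%) or early neurula against early gastrula (0.0466%), and none with the replicate block (0.19%, 0.106% and 0.978%). At an unadjusted p under 0.05 there were 0, 0 and 3 members, against 1.76%, 0.808% and 3.09% of all probe sets, and with the replicate block 9, 5 and 16 against 12.3%, 7.83% and 16.7%. The 3 members, all for early neurula against early gastrula, were chd1.L (-1.42, SE 0.65, unadjusted p = 0.0477), kdm7a.S (-0.91, unadjusted p = 0.0443) and brd7.L (-0.80, unadjusted p = 0.0466). The smallest adjusted p of a member under the block was 0.0858, for chd1.L.

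Among the members, homeologs of a gene mostly changed with the same sign at the earlier control step. For 15 genes measured as both .L and .S, the change from early to late gastrula in control embryos had the same sign in 13, and both homeologs were called in 5 (bmi1, cbx8, dnmt1, kmt5b and pcgf2), 1 of them in 8, and neither in 2 (cbx3 and chd1). The sign was the same in 9 of the 15 at the later control step, and in 10, 5 and 8 for the Gam1 difference in the order of the stages, where no homeolog was called. The median difference between homeologs at the earlier step was 0.43 on the log2 scale. Some pairs were unequal: ring1.L changed by -0.47 against -1.68 for ring1.S, and mbd1.L by 1.0 against -0.23 for mbd1.S. For arid2 the changes were -0.68 (.L) and 0.14 (.S). The highest group mean of arid2.S was 2.65, near the array's lowest value, so its sign cannot be read and the pair cannot be compared. The widest gap, 3.96 for cbx8, involved a .L probe set near the array's lowest value, whose call rests on such values too. The difference between homeologs was not tested. At the earlier control step 53.6% of all probe sets were called. No count was made over all homeolog pairs or repeated symbols of the array, so the counts given here have no such background. Of 23 symbols with several probe sets, 7 had all of them called in the same direction and 8 had none called. A further 2, chd7.L and kmt5a.S, had calls in both directions. For kmt5a.S direction cannot be given. The falling chd7.L probe set, Xl2.40589.1.S1_at, had every group mean under 4, and the other 3 chd7.L probe sets rose.

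**Figure D5:**
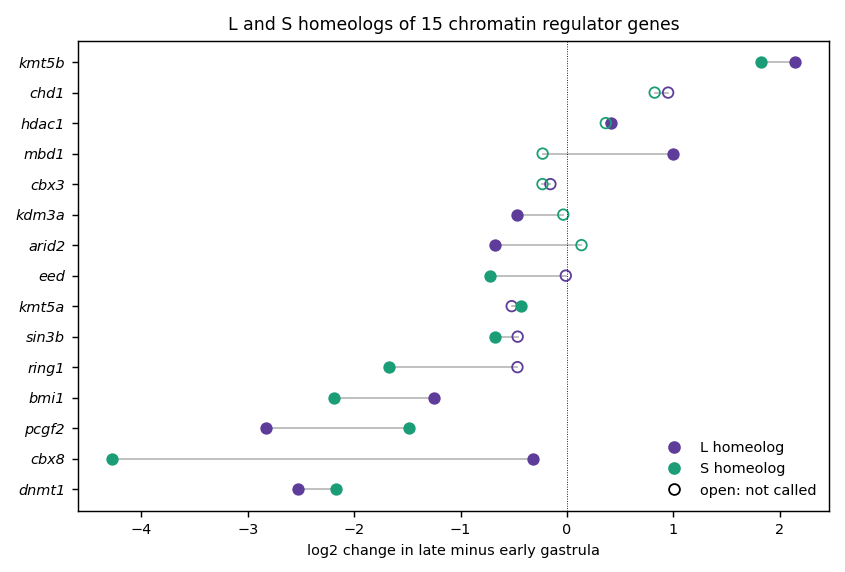
Log2 change from early to late gastrula in control embryos (horizontal axis) for the .L (purple) and .S (green) homeolog of 15 genes, 1 probe set for each, with a line joining the pair; filled points passed a limma adjusted p under 0.05 and open points did not. In 13 genes both points lie on the same side of 0, and the longest line is that of cbx8.

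Genes of the SUMO pathway, in a list made with earlier results known, were taken alongside because Gam1 acts on this pathway. The list gave 35 probe sets of 16 of 19 genes, and none was called between Gam1 and control embryos at any stage (medians -0.01, -0.06 and -0.07). The subunits of the SUMO-activating enzyme, sae1.L and uba2.L, differed by 0.01, 0.04 and 0.05 and by 0.03, 0.09 and 0.11 in the order of the stages, and neither was called. Both sumo2 homeologs and sumo3.L, the modifiers themselves, differed by -0.05 to 0.11. Under the block with the shared spread 1 probe set was called, senp1.S, a SUMO protease gene, lower at early neurula (-0.47, blocked adjusted p = 0.0359). The block with the shared spread called 7.99% of all probe sets at that stage. From early to late gastrula in control embryos 17 of the 35 fell and 5 rose (18 and 8 with the replicate block), against a background of 29.7% lower and 24.0% higher, with a median of -0.69 against -0.08 for all probe sets. The falls included the SUMO-targeted ubiquitin ligase genes rnf4.S (-3.21) and rnf4.L (-2.05), and the SUMO ligase genes pias4.S (-2.41 and -1.86), pias4.L (-0.80), pias1.L (-2.02) and pias3.L (-1.25), while pias2.L (-0.80) did not pass the test. The protease genes senp1.S (-2.03 and -1.56), senp1.L (-1.63), senp7.L (-1.68) and 3 of 4 senp6.S probe sets (-0.99 to -0.69) also fell, and sae1.L fell by 0.35. The rises were sumo2.L (0.49), 2 of 5 senp5.L probe sets (1.71 and 0.95), 1 of 2 rangap1.S probe sets (2.02) and 1 of 2 ranbp2.L probe sets (2.82), whose other probe set fell (-0.92), as did 1 of ranbp2.S (-0.74). Not called were uba2.L, sumo2.S, sumo3.L, rangap1.L and senp3.L.

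Further subunits of chromatin complexes, in lists made the same way, held 228 probe sets of 119 of 195 genes. None of these was called between treatments in the unpaired fit, with medians of -0.02, -0.06 and -0.05. The replicate block with the shared spread called 0 in early gastrulae, 3 lower in late gastrulae, and 5 lower and 5 higher in early neurulae. Of all probe sets that fit called 0.161%, 3.85% and 7.99% in the order of the stages. The member of these lists with the smallest unadjusted p in limma was sap30.S (-0.23, unadjusted p = 0.0319) in early gastrulae, bcl7a.L (-0.52, unadjusted p = 0.0128) in late gastrulae and set.S (0.22, unadjusted p = 0.00328) in early neurulae, none below the adjusted threshold. From early to late gastrula 58 of the 228 fell and 64 rose in control embryos, near the background of 29.7% and 24.0%, with a median of 0.02.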

How the data were processed

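Whole-embryo RNA was labelled and hybridized to Affymetrix 3' arrays for this species. The authors deposited log2 signals, quantile normalized over the 18 arrays (each array's median is 7.72). Background correction and summarization are not given in the sources used here. Of 23701 probe sets, 72 controls were left out and 23629 tested. Symbols came from the platform annotation (12258 probe sets with 1 symbol, 228 with several, 11143 with none), and 77 of 78 member symbols matched RefSeq. The members and lists were chosen with earlier results of these data known.

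Groups were compared in limma 3.58.1 (R 4.3.3; lmFit, eBayes with trend), two-sided, with Benjamini-Hochberg adjustment over all tested probe sets and a threshold of 0.05: Gam1 against control within each stage (6 arrays), stages within a treatment (9 arrays) and differences between stages (18 arrays). Members named were, at each stage, up to 6 per direction with the smallest p, a mean of at least 5 and the same direction in all 3 replicate numbers; the up to 8 largest called falls and rises of each step; core subunits; blocked calls; ends of family ranges; and the SUMO machinery list. Values are not printed for every member and stage that met these criteria. Other examples within families were chosen after their values were seen. No sequence is printed because none was at hand for these genes.

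The main fit was unpaired, as in the study's methods. The study says that replicates account for variation between egg clutches, and the labels do not state which arrays share a clutch. Arrays of 1 replicate number deviated together over all tested probe sets (r = 0.904 to 0.941 at early gastrula, 0.765 to 0.81 at late gastrula and 0.686 to 0.808 at early neurula). Between different numbers r was negative, but subtracting each group's mean beforehand pushes these values below 0. The number was therefore taken to pair arrays on the positive values alone, and a replicate block was an alternative. Other alternatives were a spread shared by all stages, no trend of spread with signal, the Student's test named in the methods, filters at a mean of 4 or 6, another quantile normalization, median centring, leaving out probe sets that may cross-hybridize, 1 probe set per symbol, and leaving out each array. The number of arrays limits the precision. The fit was tested on simulated data.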

Additional observations from a re-analysis of the deposited data

How the results depend on the processing

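No member was called between Gam1 and control embryos under any unpaired alternative. The replicate block with the shared spread called 2 at early neurula. At an unadjusted p under 0.05 the replicate block gave 9, 11 and 13 members in the order of the stages, and with the shared spread 6, 23 and 27, each below the share of all probe sets. The shared spread without the block gave 2 at late gastrula and 2 at early neurula. Student's test of the methods gave 2 at early gastrula and 2 at early neurula, and the filter at a mean of 6 gave 3 at early neurula. Of all probe sets, Student's test gave 95 lower and 106 higher at early gastrula, and 792 and 804 at early neurula. The filter gave 586 lower and 538 higher of 15741. Leaving out arrays gave 0 to 0, 2 to 5 and 0 to 6 at the 3 stages, with medians of -0.019 to -0.0024, -0.054 to -0.034 and -0.096 to -0.051. Of all 23629 probe sets, these fits gave 67 to 98 lower and 73 to 129 higher at early gastrula. At late gastrula they gave 350 to 872 and 340 to 652, and at early neurula 462 to 1036 and 575 to 887. For the difference between stages the replicate block gave 9, 5 and 16 members at an unadjusted p under 0.05, no trend gave 1 for late against early gastrula, and leaving out arrays gave 0 to 2, 0 to 0 and 1 to 2. Of all probe sets, no trend gave 210 lower and 203 higher. Leaving out arrays gave 161 to 254 lower and 151 to 259 higher, then 101 to 229 and 83 to 158, then 290 to 352 and 258 to 387.

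From early to late gastrula, leaving out arrays gave 48 to 59 calls in control and 45 to 57 in Gam1 embryos, with medians of -0.0062 to 0.063 and -0.073 to 0.014. Of all 23629 probe sets, these fits called 6090 to 6916 lower and 4993 to 5547 higher in control embryos (7006 and 5668 with every array). In Gam1 embryos they called 5736 to 6590 lower and 4672 to 5207 higher (6706 and 5358 with every array). The control median was 0.11 with a mean of at least 4, 0.15 with at least 6 and -0.19 with 1 probe set a symbol, and the Gam1 median was 0.10 with at least 6 and -0.15 with 1 probe set a symbol. From late gastrula to early neurula the replicate block called 19 members in control and 18 in Gam1 embryos. Leaving out arrays gave 0 to 11 and 0 to 9, with medians of -0.084 to -0.034 and -0.13 to -0.028. Calls over all probe sets also changed with the array left out, as given above. The control median was -0.043 without possibly cross-hybridizing probe sets and -0.10 with 1 probe set a symbol, and the Gam1 median was -0.11, -0.13 and -0.11 with a mean of at least 4, of at least 6 and 1 probe set a symbol.

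Of single members, the early gastrula difference of brd9.L ranged from -0.0024 (without Gam1 replicate 1) to 0.33 when arrays were left out. The early neurula difference of hdac8.L ranged from -0.033 (without Gam1 replicate 2) to 0.53. Leaving out 1 array takes its replicate number out of 1 group only, so such values also hold differences between replicate numbers. The range between replicate numbers was 0.56 for brd9.L and 0.88 for hdac8.L at these stages. Within each of the 3 replicate numbers both were higher in Gam1. Values that moved by over 1.5 times included those of kdm7a.S at late gastrula (-0.50 without control replicate 1), kmt5a.S at late gastrula (-0.41 without Gam1 replicate 1), and at early neurula mbd1.L (-0.18) and cbx1.S (-0.21) without Gam1 replicate 1 and hdac10.L (0.15 without Gam1 replicate 3). Over the alternatives 842 single-member values kept their direction and side of the threshold, 44 lost significance, 2 gained it and 2 reversed direction. The cause of these changes was not tested. The number of arrays limits the precision, and values near the array's lowest have no order.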

Other observations

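The 4 probe sets that carried several symbols, and so were not members, gave the following values. The probe set shared by chd1.L and chd1.S differed between Gam1 and control embryos by 0.62, -0.24 and -0.90 in the order of the stages, none of them called. It shares sequence with both homeologs, so it is not independent of their own probe sets. The probe set shared by cbx3.L and cbx3.S fell from early to late gastrula in control embryos by 0.32 (limma adjusted p = 0.0356), whereas those shared by arid2.S and arid2.L (0.04) and by wdcp.L and eed.S (0.09) were not called.

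The class I deacetylase gene hdac3.S had the widest range between replicate numbers of any member at the later stages, 3.25 on the log2 scale at late gastrula and 2.80 at early neurula. At late gastrula its probe set read 3.40, 5.94 and 2.91 in Gam1 and 3.88, 6.39 and 2.92 in control embryos, so that replicate 2 stood above the others in both treatments.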
